A study of Mus musculus with 28 samples.

Results

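The 7 genes described here, Snai1, Snai2, Twist1, Twist2, Zeb1, Zeb2 and Prrx1, encode mesenchymal transcription factors. They were taken by name, with no measured value in the rule, although earlier results of these data were known when they were chosen. All 7 were measured, out of 11807 genes on the larger of 2 microarray tables and 12394 on the smaller. Snai1 and Snai2 encode zinc finger repressors, Zeb1 and Zeb2 encode repressors that carry both zinc fingers and a homeodomain, Twist1 and Twist2 encode basic helix-loop-helix factors, and Prrx1 encodes a paired-type homeodomain protein of limb and connective tissue mesenchyme. In development and in carcinoma cells such factors drive the epithelial-to-mesenchymal transition, in which cells lose E-cadherin junctions and gain motility, and the Snai and Zeb proteins bind E-box motifs in the promoters of epithelial genes. Fibroblasts that are reprogrammed to pluripotency pass the other way, from a mesenchymal to an epithelial state.

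The study followed mouse embryonic fibroblasts (MEFs) through reprogramming to induced pluripotent stem (iPS) cells. All cells derived from embryos of day 13.5 of a strain described as C57BL6/129 (the labels of the EpCAM arrays name no strain), which carried an OKSM cassette of the reprogramming factors and the Rosa26-M2rtTA transactivator in 1 copy (het/het) or 2 copies (ho/ho), and the labels do not say which sample had which. Doxycycline switched the cassette on in medium with serum and LIF, and cells were sorted on days 3, 6, 9 and 12 by Thy1, a fibroblast surface protein, and SSEA1, a carbohydrate found on mouse pluripotent cells. From each day came 3 fractions: SSEA1+ (and Thy1-negative), Thy1- (without either marker) and Thy1+. Day 12 also gave SSEA1+ cells positive for a GFP reporter whose gene is not named, and iPS cultures were also labelled GFP+ and were depleted of feeder cells by preplating. Fractions of days 3 and 6 had 2 arrays each, called M2 and M3, those of days 9 and 12 and the GFP+ cells had 1 each, from M2, iPS cells had 3 (1-3, 1-5 and 1-6) and uninduced MEFs of day 0 had 2. On a separate design, day 6 SSEA1+ cells were divided, according to EpCAM, an epithelial adhesion protein, into EpCAM+ and EpCAM- cells, with 2 arrays each. Nothing in the labels ties the arrays of a group to different animals or cultures. The p-values therefore reflect spread among arrays alone, possibly technical, and the number of arrays limits the precision.

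Values are the authors' RMA signals on the log2 scale, with a median per array of 6.835 to 6.988 over the 24 arrays of the larger table. Differences were tested with limma in 1 fit of all genes and arrays of a table, except that the comparisons of fractions over all days came from a fit of the 18 sorted arrays of those fractions. A gene, read by its brightest probe set, was called where its Benjamini-Hochberg adjusted p was under 0.05 and the difference at least 2-fold. The probe sets were 1448742_at (Snai1), 1418673_at (Snai2), 1418733_at (Twist1), 1448925_at (Twist2), 1418926_at (Zeb1), 1422748_at (Zeb2) and 1425528_at (Prrx1). The groups carried the markers of their labels: the mean signal of 7 fibroblast genes was 6.43 to 7.45 on the iPS arrays (7.45 on iPS 1-3), 6.87 in GFP+ cells and 11.88 and 11.93 on the MEF arrays. That of 10 pluripotency genes was 11.33 to 11.54 on the iPS arrays, 10.94 in GFP+ cells and 4.46 and 4.47 on the MEF arrays. Of 21 measured markers of macrophages, endothelium, erythroid cells and neural crest the median gene averaged 4.62, with the endothelial receptor gene Tek the highest at 10.23. The day 6 Thy1+ M2 array stood apart, with a 3′ minus 5′ signal difference for Gapdh of 1.78, against at most 1.11 on the other 23 arrays, a measure that grows with RNA degradation. Several results that rest on that array are given with and without it, and the others with it only. The mean signal of the 18S RNA probe sets was 7.69 to 7.88 in iPS cells, 7.2 to 7.71 in the day 3 fractions and 9.04 to 9.26 in MEFs, while within the sorted cells it was 8.34 to 9.25 on the day 12 arrays and 7.08 to 8.18 on those of days 3 to 9. Its part in the differences from MEFs and between late and early days was not tested.

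All 7 genes were lower in iPS cells than in MEFs, where 15.3% of all genes were called lower. Prrx1 stood at 6.59, 7.30 and 7.61 on the iPS arrays, against 12.35 and 12.43 on the MEF arrays, a log2 difference of −5.22 (SE 0.21, limma adjusted p = 6.98e-11). Twist2, a regulator of dermal and skeletal mesenchyme, stood at 4.82, 4.82 and 5.35 in iPS cells, against 10.41 and 10.46 in MEFs (log2 difference −5.43, SE 0.19, limma adjusted p = 2.1e-11). No array of one group overlapped the other for any of the 7 genes. The share of all genes without such overlap is not given here. The remaining log2 differences were −4.21 for Snai2, −3.73 for Twist1, −3.53 for Snai1, −3.52 for Zeb2 and −2.41 for Zeb1, and the median over the members was −3.73, beside 0.01 over all genes. The 7 fibroblast markers were lower too, and in bulk RNA fewer cells of a type and less RNA per cell cannot be told apart. How far the signals sank also differed among the genes. Zeb1 still stood at the 70.3 to 70.4 percentile of its array in iPS cells, whereas Zeb2 stood at the 18.2 to 23.5 percentile and Snai1 at the 24.8 to 27.2 percentile. In MEFs Zeb1 stood at the 94.3 to 95.0 percentile and Prrx1 at the 98.6 to 98.7 percentile. Percentiles depend on the probe set, so they place each signal on its array and do not rank the genes by transcript number.

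**Figure D1:**
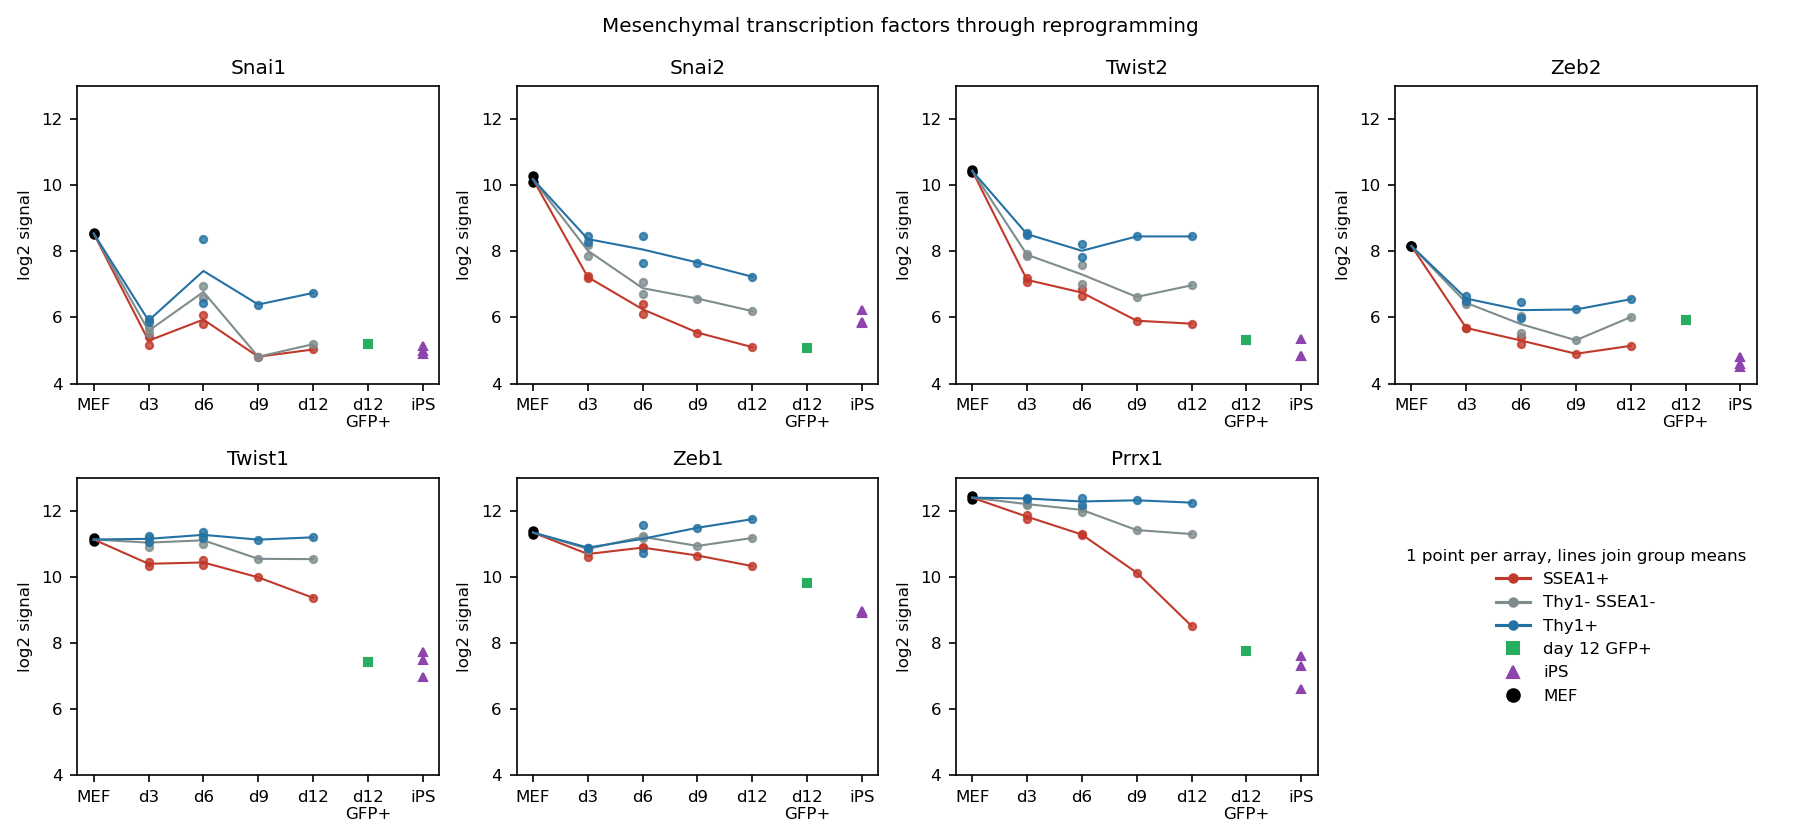
Log2 signal of each gene (vertical axis) in MEFs, the sorted fractions of days 3 to 12, day 12 GFP+ cells and iPS cells (horizontal axis), with 1 point per array and lines through the group means of each fraction. Snai1, Snai2, Twist2 and Zeb2 (top) had dropped in every fraction by day 3, while Twist1, Zeb1 and Prrx1 (bottom) lay at 11.05 to 11.35, 10.73 to 11.74 and 12.17 to 12.38 on the Thy1+ arrays, with the SSEA1+ line below the Thy1+ line throughout.

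The members separated at the first time point. By day 3, Snai1, Snai2, Twist2 and Zeb2 had fallen in all 3 fractions, the Thy1+ cells included, and Twist1, Zeb1 and Prrx1 were called in none. The 4 called members compare with 8.8% of all genes called lower in day 3 SSEA1+ cells, 6.55% in Thy1- cells and 5.43% in Thy1+ cells, and the 3 comparisons share the MEF arrays. Snai1, the factor that responds fast to TGF-beta and other signals, stood at 5.17 and 5.42 in day 3 SSEA1+ cells, against 8.52 and 8.55 in MEFs, a log2 difference of −3.24 (SE 0.39, limma adjusted p = 1.51e-05). In Thy1+ cells of the same day Snai1 stood at 5.96 and 5.85, a difference of −2.64 from MEFs (SE 0.39, limma adjusted p = 0.000166). Both fractions thus lay far below the MEF arrays for this gene. Twist2 stood at 7.07 and 7.20 in SSEA1+ cells and at 8.5 and 8.54 in Thy1+ cells, against 10.41 and 10.46 in MEFs, differences of −3.30 and −1.91. Zeb2, which is known from neural crest and nervous system development, stood at 5.67 and 5.69 in SSEA1+ cells and at 6.65 and 6.49 in Thy1+ cells, against 8.17 and 8.15 in MEFs, differences of −2.48 and −1.59. Snai2, the factor also known as Slug, differed from MEFs by −2.96 in SSEA1+ cells and by −1.81 in Thy1+ cells. The Thy1- cells lay between, with differences of −2.94 for Snai1, −2.54 for Twist2, −2.16 for Snai2 and −1.72 for Zeb2.

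The Twist and Zeb paralogues thus gave different calls at day 3. Twist1, which is required in cranial and limb mesenchyme, stood at 10.33 and 10.45 in SSEA1+ cells and at 11.05 and 11.24 in Thy1+ cells, against 11.16 and 11.09 in MEFs. Its log2 difference was −0.73 in SSEA1+ cells (SE 0.20, limma adjusted p = 0.0103, under 2-fold) and 0.02 in Thy1+ cells (SE 0.20). Zeb1, a direct repressor of E-cadherin, differed by −0.65 (SE 0.19, limma adjusted p = 0.0168, under 2-fold) and −0.45 in those fractions. That Twist1 differed from Twist2, or Zeb1 from Zeb2, in its change was not tested itself. For Prrx1 the call depended on the probe set. It was read by 4 probe sets, and the brightest, used throughout, gave −0.58 in day 3 SSEA1+ cells (SE 0.23, limma adjusted p = 0.0709), while the others gave −1.19, −1.23 and −1.29. The mean of the 4 gave −1.07 (SE 0.21, limma adjusted p = 0.00107), which passed. In day 3 Thy1+ cells the 4 probe sets gave −0.03 to −0.30, so that all 4 stood closer to MEFs there than in SSEA1+ cells.

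**Figure D2:**
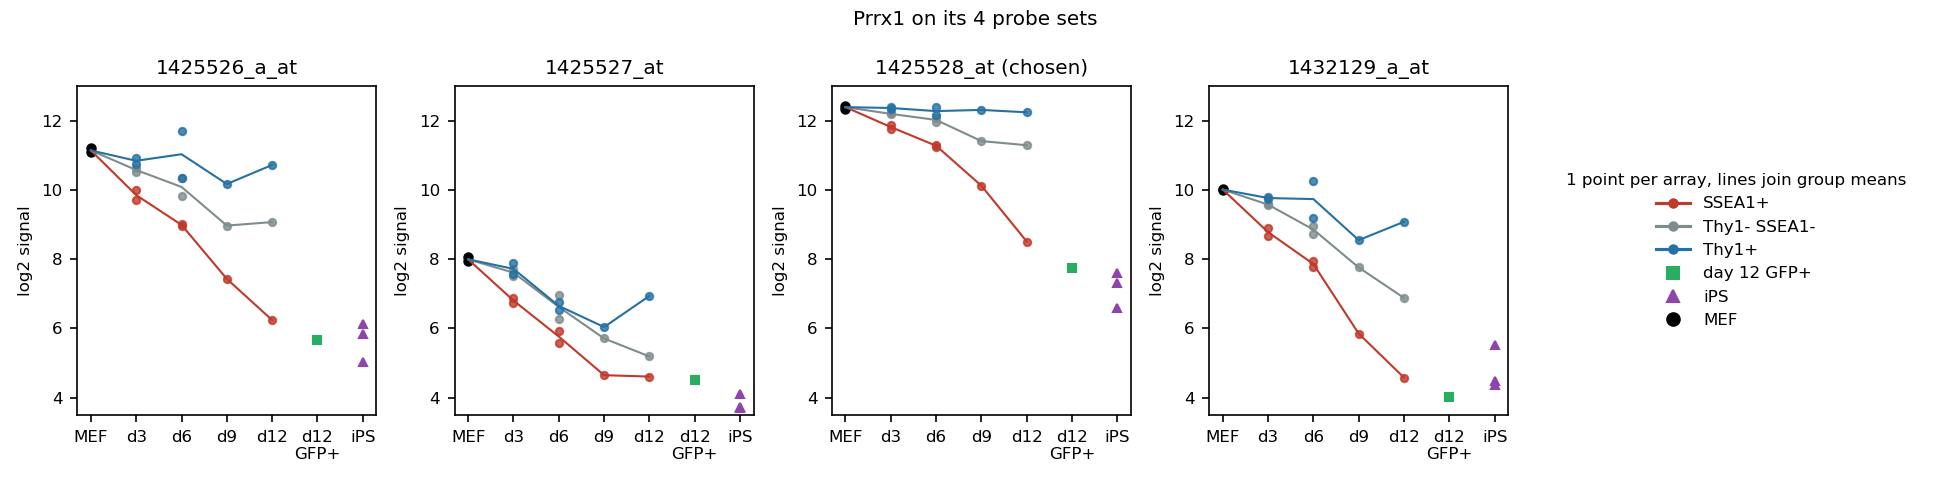
Log2 signal (vertical axis) of the 4 Prrx1 probe sets, 1 panel each, in MEFs, the sorted fractions by day, day 12 GFP+ cells and iPS cells (horizontal axis), with 1 point per array and lines through group means. The SSEA1+ line lies below the Thy1+ line on every probe set and day, and the brightest set, which averaged 12.39 in MEFs, dropped least by day 3.

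In the SSEA1+ course the 4 early genes covered most of their way to the iPS level in the first 3 days. As a share of the log2 difference between the iPS and MEF means, day 3 SSEA1+ cells had covered 92.0% for Snai1, 70.4% for Zeb2, 70.3% for Snai2 and 60.7% for Twist2, and 26.9% for Zeb1, 19.6% for Twist1 and 11.0% for Prrx1. The Prrx1 share was 23.6% to 28.7% with its 3 other probe sets, above that of Twist1. By mean signal, the probe sets of the 4 early genes stood at the 37.8 to 53.5 percentile of those with 1 gene symbol. Those of Twist1, Zeb1 and Prrx1 stood at the 89.4 to 94.7 percentile. The part of probe set brightness in these shares was not tested. From day 3 to day 6 none of the 7 was called in SSEA1+ cells, where 1.8% of all genes were (limma, 2 members with an unadjusted p under 0.05 and a lower signal, Snai2 at −0.97 and Prrx1 at −0.54). From day 6 to days 9 and 12 Prrx1 fell by 1.96 on the log2 scale (SE 0.23, limma adjusted p = 0.000154) and was the only member called, beside 1.29% of all genes called lower. Prrx1 stood at 11.75 and 11.88 on day 3, 11.30 and 11.25 on day 6, 10.12 on day 9 and 8.51 on day 12. Each day of its SSEA1+ course thus lay below the day before. Snai2, Twist2 and Twist1 also had adjusted p-values under 0.05 in this step, with differences of −0.93, −0.90 and −0.76 that were under 2-fold. Snai1 differed by −1.02 with an adjusted p of 0.169 (limma), and of 0.000549 when the day 6 Thy1+ M2 array, which takes no part in this comparison, was left out of the common estimate of spread. On day 12 SSEA1+ cells had covered 74.3% of the difference for Prrx1 (81.7% to 104% with the other probe sets), 47.3% for Twist1 and 42.2% for Zeb1, against 85.1% for Twist2 and 85.9% for Zeb2.

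**Figure D3:**
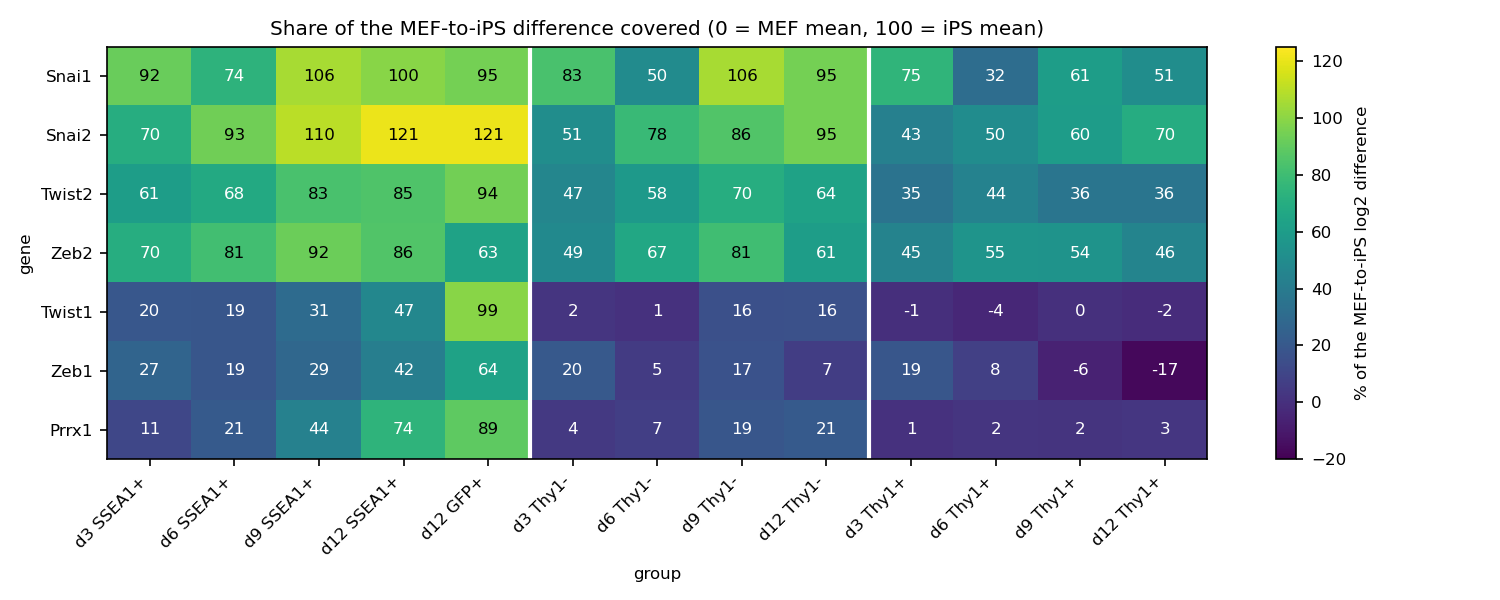
Share of the log2 difference between MEFs (0) and iPS cells (100) covered by each gene (rows) in each sorted group (columns), in percent, as printed in the cells and by colour. The upper 4 genes had covered between 60.7% and 92.0% in SSEA1+ cells by day 3, and the lower 3 between 11.0% and 26.9%, with Prrx1 drawn from its brightest probe set (23.6% to 28.7% with the 3 others).

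Day 12 GFP+ cells, the SSEA1+ cells with an active reporter, were set against the GFP-negative SSEA1+ cells of that day, 1 array against 1. Neither array has a replicate, and the fit gives both the spread of the replicated groups. Twist1 was the only member called, at 7.43 in GFP+ cells, against 9.36 in SSEA1+ cells, a log2 difference of −1.93 (SE 0.28, limma adjusted p = 0.000443), where 4.73% of all genes were called lower. It had covered 99.0% of the way to the iPS mean of 7.40 in GFP+ cells. Zeb1 was at 9.80 in GFP+ and 10.32 in SSEA1+ cells and Prrx1 at 7.74 in GFP+ and 8.51 in SSEA1+ cells, and neither was called. Zeb2 was at 5.93 in GFP+ cells and 5.14 in SSEA1+ cells (difference 0.79, SE 0.26, limma adjusted p = 0.0772). In iPS cells, Zeb2 was lower than in GFP+ cells, at 4.5, 4.6 and 4.81 against 5.93 in GFP+ cells (log2 difference −1.29, SE 0.21, limma adjusted p = 0.000913), where 3.24% of all genes were called lower and no other member was. Zeb1 differed by −0.88 (limma adjusted p = 0.0136, under 2-fold). Snai2 pointed the other way, at 5.83, 5.85 and 6.22 in iPS cells against 5.07 in GFP+ cells (log2 difference 0.90, SE 0.27, limma adjusted p = 0.0313, under 2-fold). The 6.22 came from the iPS 1-3 array, the iPS array with the highest fibroblast marker mean, and the part of that in the difference was not tested.

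The Thy1+ cells of the late days, which still carried the fibroblast surface marker, gave calls against MEFs for the 4 early genes and, with the brightest probe set of each gene, for none of the other 3. On days 9 and 12, Snai1, Snai2, Twist2 and Zeb2 were still lower in Thy1+ cells than in MEFs, where 4.56% of all genes were called lower. Snai2 stood at 7.66 and 7.23 on the 2 late arrays, against 10.09 and 10.27 in MEFs, a log2 difference of −2.73 (SE 0.23, limma adjusted p = 1.05e-06). Twist2 stood at 8.45 on both late arrays (difference −1.98), Zeb2 at 6.24 and 6.55 (−1.76) and Snai1 at 6.39 and 6.74 (−1.97). Twist1 stood at 11.12 and 11.19 in late Thy1+ cells, against 11.16 and 11.09 in MEFs, and Prrx1 at 12.31 and 12.24, against 12.35 and 12.43 in MEFs, with differences of 0.03 (SE 0.20) and −0.12 (SE 0.23). The Prrx1 value depended on the probe set. The 3 others stood lower on both late arrays than on both MEF arrays, with differences of −0.69, −1.20 and −1.5, and the mean of the 4 differed by −0.88 (SE 0.21, limma adjusted p = 0.00728, under 2-fold). Zeb1 stood at 11.48 and 11.74, above both MEF arrays at 11.28 and 11.39, with a difference of 0.28 (SE 0.19) that was not called. The fibroblast marker mean was 10.62 and 10.71 on these arrays, against 11.88 and 11.93 in MEFs, and 2 of the 7 markers were called lower. Its part in the 4 lower genes was not tested.

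Between day 3 and the late days, 0 of the 7 genes were called in Thy1+ cells, where 7.78% of all genes were (limma, 2 members with an unadjusted p under 0.05). These were Zeb1 at 0.73 (SE 0.19, limma adjusted p = 0.0145) and Snai2 at −0.93 (SE 0.23, limma adjusted p = 0.0109), both under 2-fold. In the same cells 3 of the 7 fibroblast markers were called higher, and the share of all genes called higher there is not given here. Snai1 was higher on day 6 than on day 3 in each fraction, with means of 5.94 on day 6 and 5.29 on day 3 in SSEA1+ cells, 6.77 on day 6 and 5.6 on day 3 in Thy1- cells, and 7.41 on day 6 and 5.90 on day 3 in Thy1+ cells. Only the SSEA1+ step was tested (difference 0.64, SE 0.39, limma adjusted p = 0.599). The day 6 Thy1+ mean rests on 8.36 on the M2 array that stood apart and 6.45 on M3, and without M2 only the 6.45 is left.

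The 3 fractions were ordered in the same way for nearly every gene and day. The SSEA1+ mean was the lowest in 27 of 28 combinations of gene and day, and the Thy1- mean lay between the other fractions in 26 of 28. The same arrays serve all 7 genes, so these combinations are not independent. How often all genes show this order is not given here. Without the day 6 Thy1+ M2 array the counts were 27 and 26 of 28 as well, but on day 6 the Snai1 signal of Thy1- cells no longer lay between the others and that of Zeb1 did. Over all days, 6 of the 7 genes were lower in SSEA1+ than in Thy1+ cells, where 5.07% of all genes were called lower. The differences were −1.75 for Twist2 (SE 0.19), −1.70 for Snai2 (SE 0.16), −1.5 for Prrx1, −1.24 for Snai1, −1.06 for Zeb2 and −1.03 for Twist1 (limma adjusted p = 1.77e-05). Zeb1 differed by −0.53 (SE 0.16, limma adjusted p = 0.0132), which was under 2-fold. Between Thy1- and Thy1+ cells, and between SSEA1+ and Thy1- cells, 0 of the 7 were called by limma over all days, beside 1.91% and 0.898% of all genes. The unadjusted limma p was under 0.05 for 5 and 6 members, all lower in the fraction named first. The share of all genes with such a p is not given here. Without the day 6 Thy1+ M2 array, the same 6 genes were called between SSEA1+ and Thy1+ cells, with Snai1 at −1.02, and 1 gene was called in each of the other comparisons, Twist2 between Thy1- and Thy1+ cells (−1.10) and Prrx1 between SSEA1+ and Thy1- cells (−1.05). The mean fibroblast signal ran in the same order, at 8.05 and 8.08 in SSEA1+ cells, 8.64 and 8.80 in Thy1- cells and 9.24 and 9.38 in Thy1+ cells on day 3, and at 7.77 in SSEA1+, 9.33 in Thy1- and 10.71 in Thy1+ cells on day 12. Its part in the order of the fractions was not tested.

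For Prrx1 and Twist2 a widening of the gap between SSEA1+ and Thy1+ cells with time was called. On day 3 Twist2 and Snai2 were called lower in SSEA1+ cells, beside 1.41% of all genes, at −1.38 (SE 0.21, limma adjusted p = 0.00223) and −1.15 (SE 0.23, limma adjusted p = 0.013). The Snai2 call was lost when any 1 of the 4 arrays was left out (limma adjusted p between 0.074 and 0.141). On day 6 Snai2, Snai1 and Twist2 were called, beside 6.25% of all genes, at −1.81, −1.47 and −1.26. Prrx1 (SE 0.23, limma adjusted p = 0.00511) fell just short of 2-fold with its brightest probe set and differed by −1.45 in the mean of its 4 probe sets, which passed. That mean takes in the day 6 Thy1+ M2 array, and the mean of the 4 probe sets without it is not given here. Without the day 6 Thy1+ M2 array, Snai1 differed by −0.52 and was under 2-fold, Snai2 by −1.42 and Twist2 by −1.46, and Prrx1 was called at −1.10. In a fit of only the 4 day 6 arrays none of the 3 passed (limma adjusted p between 0.0539 and 0.28). On days 9 and 12 all 7 genes were lower in SSEA1+ cells, where 9.12% of all genes were called lower, with Prrx1 at 10.12 and 8.51 against 12.31 and 12.24 in Thy1+ cells (log2 difference −2.96, SE 0.23, limma adjusted p = 2.44e-07). Twist2 differed by −2.60, Snai2 by −2.13, Snai1 by −1.64, Twist1 by −1.49, Zeb2 by −1.38 and Zeb1 by −1.13. The SSEA1+ and Thy1+ arrays of the late days did not overlap for any of the 7. How many of all genes were without overlap is not given here.

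The change of this gap from day 3 to days 9 and 12 was tested itself. It was −2.41 for Prrx1 (SE 0.33, limma adjusted p = 0.000228) and −1.21 for Twist2 (SE 0.30, limma adjusted p = 0.0147), beside 4.59% of all genes called in that direction. The Prrx1 value is that of its brightest probe set, where the gap was −0.55 on day 3 and −3.73 on day 12. On the 3 other Prrx1 probe sets the gap was −0.92 to −0.99 on day 3 and −2.34, −4.48 and −4.5 on day 12. For Zeb1 the change was −0.93 (SE 0.27, limma adjusted p = 0.0375), under 2-fold. For Snai2, Twist1 and Zeb2 it was under 2-fold too, with a limma adjusted p between 0.0749 and 0.298. For Snai1 it was −1.03, over 2-fold, but not called (SE 0.56, limma adjusted p = 0.301). The day 6 Thy1+ M2 array takes no part in this comparison, but it enters the common estimate of spread behind that SE. Snai1 stood at 8.36 on that array and at 6.45 on day 6 Thy1+ M3. The test of the Snai1 change without that array is not given here, so the missing call does not show that its gap stayed the same. The Twist2 call was lost without the day 3 Thy1+ M2 array (limma adjusted p = 0.0555) and without the day 3 SSEA1+ M3 array (limma adjusted p = 0.064).

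**Figure D4:**
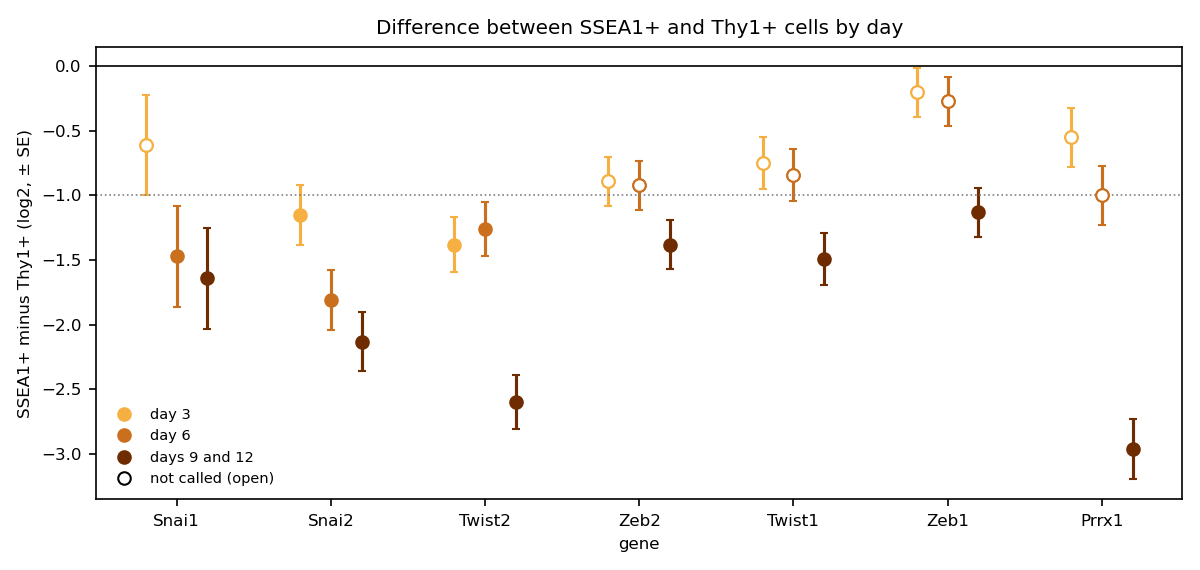
SSEA1+ minus Thy1+ log2 difference of each gene (horizontal axis) with its standard error on day 3, day 6 and days 9 and 12. Filled points were called and open points were not, the dotted line marks a 2-fold difference, and Prrx1 reached −2.96 on the late days, against −0.55 on day 3.

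On the separate design, which has its own fit, Prrx1, Zeb2 and Zeb1 had the lowest differences between the day 6 EpCAM fractions. None of the 7 genes was called between EpCAM+ and EpCAM- cells, beside 0.75% of all genes called either way and 0.266% called lower (limma, 6 members with an unadjusted p under 0.05, 5 of them lower). The share of all genes with such an unadjusted p is not given here. Prrx1 stood at 9.80 and 9.65 in EpCAM+ cells, against 10.37 and 10.61 in EpCAM- cells (log2 difference −0.76, SE 0.11, limma adjusted p = 0.0299, under 2-fold). Zeb2 stood at 5.54 and 5.39 in EpCAM+ cells, against 6.47 and 5.98 in EpCAM- cells (−0.76, SE 0.17, limma adjusted p = 0.0798). Zeb1 stood at 8.11 and 8.25 in EpCAM+ cells, against 8.86 and 8.65 in EpCAM- cells (−0.57, SE 0.11, limma adjusted p = 0.057). Snai2 differed by −0.39, Twist1 by −0.32 and Twist2 by −0.09, and Snai1 by 0.23 in the other direction. Of the 7, only Twist2 overlapped between the fractions, and Snai1 lay apart in the other direction. With 2 arrays per fraction this says little, and the share of all genes without overlap is not given here. Snai1 was low on all 4 arrays, at the 23.1 and 24.5 percentile of the EpCAM+ arrays and the 20.4 and 21.6 percentile of the EpCAM- arrays. Snai2, at the 23.5 to 30.5 percentile, and Twist2, at the 27.7 to 30.2 percentile, were low on all 4 as well. Such low signals limit what the differences of these genes can show. Epcam itself, the gene of the sorting marker, was higher by 2.94. The mean fibroblast signal was 5.29 and 5.24 in EpCAM+ cells, against 5.50 and 5.37 in EpCAM- cells, and that of the pluripotency genes was 6.26 and 6.54 in EpCAM+ cells, against 5.15 and 5.24 in EpCAM- cells. Their part in the differences was not tested.

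**Figure D5:**
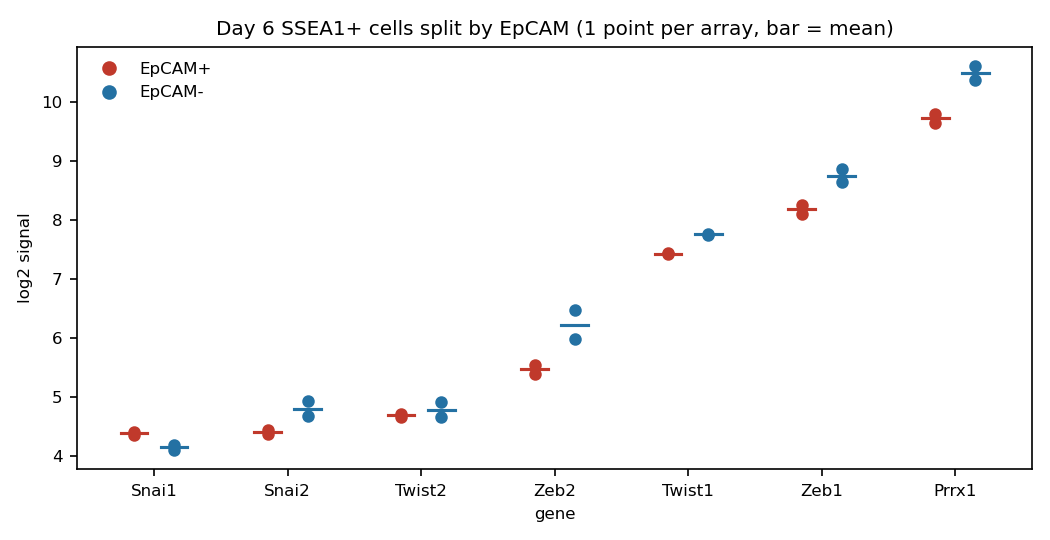
Log2 signal (vertical axis) of each gene (horizontal axis) in EpCAM+ and EpCAM- cells of day 6, with 1 point per array and a bar at the mean. Prrx1, Zeb1 and Zeb2 lay lower on both EpCAM+ arrays, and the Twist2 arrays overlapped.

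With the brightest probe set of each gene, the closest profiles among the 7 were those of Twist1 and Prrx1. The other Prrx1 probe sets did not enter these values. Across the 15 group means of the larger table, Pearson's r was 0.934 between Snai2 and Twist2, 0.904 between Twist2 and Zeb2 and 0.847 between Snai2 and Zeb2. It was 0.968 between Twist1 and Prrx1, 0.922 between Twist1 and Zeb1 and 0.897 between Zeb1 and Prrx1. Snai1 had an r of 0.792 to 0.828 with Snai2, Twist2 and Zeb2. Pairs of an early gene with Twist1, Zeb1 or Prrx1 ranged from 0.541 (Twist1 and Zeb2) to 0.839 (Twist2 and Prrx1), so the 2 ranges overlapped. Between the paralogues it was 0.591 for Zeb1 and Zeb2, 0.792 for Snai1 and Snai2 and 0.800 for Twist1 and Twist2. All pairs share the same arrays and the same contrast of MEFs and iPS cells, so these values only describe the likeness. Of all genes, those most like Prrx1 were Hoxc8, Fbln5 and Frk (r of 0.994, 0.987 and 0.985), those most like Twist1 were Cntln, Csf1 and Acta2 (0.989, 0.989 and 0.988), and those most like Zeb1 were Lmbr1, Irs1 and Rnase4 (0.985, 0.975 and 0.975). Adam12, Hoxb8 and Olfml2b were most like Snai2 (0.974, 0.970 and 0.969), Cd248, Surf4 and Nnmt most like Twist2 (0.986, 0.982 and 0.977), Dbn1, Ebf2 and Tmeff2 most like Zeb2 (0.968, 0.943 and 0.940), and Dlg1, Lmod1 and Tmem63a most like Snai1 (0.952, 0.948 and 0.915).

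Genes that these factors are known to repress or that mark epithelia were counted from a list of 32. Of 29 measured, 25 were higher in iPS cells than in MEFs and 0 lower (15.4% of all genes were called higher), with Cdh1, the gene of E-cadherin, at 7.77, the splicing regulator Esrp1 at 5.90 and the tight junction gene Cldn7 at 5.82. On day 3, when 4 of the 7 factor genes had fallen in SSEA1+ cells, 7 of the 29 were higher there than in MEFs, beside 7.33% of all genes, and the median of the list was 0.28. These were the desmosomal genes Dsp (2.42), Pkp2 (1.10) and Perp (6.33), the keratin gene Krt19 (3.93), Cdh1 (3.2), the protease gene St14 (1.09) and Epcam (1.02). In Thy1+ cells of day 3, in which the same 4 factors had fallen, 4 of 29 were higher than in MEFs, beside 5.27%. Between SSEA1+ and Thy1+ cells 0 of the 29 were called by limma on day 3 (7 with an unadjusted p under 0.05) and 15 on days 9 and 12, all higher, beside 0.313% and 7.17% of all genes called higher. EpCAM+ cells had 10 of 31 higher and 0 lower, beside 0.484%, with Krt8 at 2.36 and Cldn4 at 1.71, while no factor gene was called there.

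The promoters of the epithelial genes were searched for CAGGTG, the E-box to which Snai and Zeb proteins are known to bind, on both strands (CACCTG on the strand shown). The windows run from 250 bases before to 50 after the transcription start in RefSeq's annotation of GRCm38.p6. Of the 32 listed genes 21 were matched, and Cdh1, the gene of E-cadherin, was not among them, so its promoter was not searched. The matched genes had 28 windows, some of which overlap. Of these windows 24 (85.7%) held the motif, in 20 of the 21 genes, against 20.2% of all 32851 windows. The genes were listed as known targets, and E-boxes are part of how such targets became known. Of the 10 mesenchymal effector genes matched 1 had the motif, and of the 7 factors themselves 5 were matched, with 8 windows, of which only that of Snai1 had it. The 250 bases before the start are shown for 4 epithelial genes with at least 2 matches and for Snai1, 5′ to 3′ on the strand of the gene, with matches in capitals. They are those of Epcam (chr17:87635729-87635978, plus strand), Rab25 (chr3:88548280-88548529, minus strand), Cldn7 (chr11:69965171-69965420, plus strand), Lsr (chr7:30973470-30973719, minus strand) and Snai1 (chr2:167537945-167538194, plus strand). A match describes these letters only and not binding.
Epcam: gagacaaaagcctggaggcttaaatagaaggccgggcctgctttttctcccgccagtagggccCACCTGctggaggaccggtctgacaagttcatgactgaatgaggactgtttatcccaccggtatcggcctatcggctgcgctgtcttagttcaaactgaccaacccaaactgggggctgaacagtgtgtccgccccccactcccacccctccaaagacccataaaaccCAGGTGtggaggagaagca
Rab25: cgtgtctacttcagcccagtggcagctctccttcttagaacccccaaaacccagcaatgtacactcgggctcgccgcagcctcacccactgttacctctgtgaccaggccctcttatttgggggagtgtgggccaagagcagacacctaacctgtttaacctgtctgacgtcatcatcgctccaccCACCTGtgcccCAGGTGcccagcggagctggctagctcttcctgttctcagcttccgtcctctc
Cldn7: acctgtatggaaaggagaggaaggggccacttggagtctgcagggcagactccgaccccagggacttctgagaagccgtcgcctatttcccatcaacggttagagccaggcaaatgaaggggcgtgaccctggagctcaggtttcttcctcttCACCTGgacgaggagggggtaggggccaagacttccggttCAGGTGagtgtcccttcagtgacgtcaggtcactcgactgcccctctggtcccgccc
Lsr: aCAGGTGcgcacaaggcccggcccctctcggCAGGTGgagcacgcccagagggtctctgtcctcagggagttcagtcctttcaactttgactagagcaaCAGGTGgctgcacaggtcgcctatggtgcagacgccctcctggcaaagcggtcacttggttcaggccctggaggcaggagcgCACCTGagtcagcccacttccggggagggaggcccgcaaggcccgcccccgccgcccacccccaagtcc
Snai1: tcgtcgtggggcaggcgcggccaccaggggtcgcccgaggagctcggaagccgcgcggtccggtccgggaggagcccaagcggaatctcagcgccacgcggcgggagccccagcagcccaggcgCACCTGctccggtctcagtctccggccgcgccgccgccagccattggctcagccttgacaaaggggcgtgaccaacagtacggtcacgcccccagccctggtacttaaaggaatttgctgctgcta
The matches of Epcam begin 187 and 19 bases before the start and those of Rab25, a trafficking gene of epithelia, 64 and 53 bases before it. Cldn7 has them at 97 and 57 bases in the window shown and has a second window, at chr11:69964529-69964828, with 0 matches. Lsr, a gene of tricellular junctions, has them at 249, 219, 151 and 69 bases, and Snai1, whose protein is known to repress its own gene, at 126 bases. Of these genes, Lsr was higher in iPS cells than in MEFs by 2.72 and Rab25 by 1.37.

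Of 22 genes of partners and cofactors, 4 were higher and 6 lower in iPS cells than in MEFs, where 15.4% of all genes were called higher and 15.3% lower, so that the share of higher genes was near that of all genes. The median of the list was −0.21. The dimerization partners of Twist proteins Tcf4 and Tcf12 were lower, at −1.79 and −1.76, as were their inhibitors Id1, Id3 and Id4, at −1.70, −2.49 and −1.81, and the corepressor gene Ctbp1, at −1.43, whereas its relative Ctbp2 (1.25), Sin3a (1.87) and the Polycomb genes Ezh2 (2.84) and Suz12 (1.72) were higher. By day 3 in SSEA1+ cells 2 of the 22 were called, Ezh2 at 1.59 and Suz12 at 1.06, which is near the 7.33% of all genes called higher there. Of 15 measured genes of TGF-beta and BMP signals, which induce several of the factors, 7 were lower and 1, Bmp7, was higher in iPS cells than in MEFs, with the ligand gene Tgfb3 at −4.47 and the receptor gene Tgfbr2 at −4.69. In day 3 SSEA1+ cells, where 8.8% of all genes were called lower, 6 were lower, among them Tgfb1 at −2.45, Tgfb3 at −2.51, Bmp4 at −2.37 and the feedback inhibitor gene Smad7 at −1.77, and Tgfbr2 was at −0.90 (limma adjusted p = 0.0109, under 2-fold). Of 24 other mesenchymal transcription factor genes 15 were lower and 0 higher in iPS cells, and 9 were lower in day 3 SSEA1+ cells. Of 17 mesenchymal effector genes, such as collagens and proteases, 15 were lower in iPS cells, 10 in day 3 SSEA1+ cells and 8 in day 3 Thy1+ cells, where 5.43% of all genes were called lower. In late Thy1+ cells 3 of the 17 were lower and 1 higher than in MEFs, beside 4.56% and 4.61% of all genes.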

How the data were processed

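The authors deposited log2 signals per probe set in 2 tables of 24 and 4 arrays, and the submitters' processing notes name RMA. The RMA version and which arrays were normalised together are not given in the sources used here. Total RNA was taken without DNase treatment, per the labels' protocols. Of the 22716 and 22690 probe sets, 18003 and 20393 had 1 gene symbol in the platform annotation, and those with several (287 and 691) or none (4426 and 1606) were left out. Each gene was represented by its probe set of highest mean, which gave 11807 and 12394 genes. The 4426 and 1606 probe sets without a symbol are unnamed here, not without a gene.

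Samples were grouped by the labels, and each table was fitted on its own with limma 3.58.1 (lmFit and eBayes, R 4.3.3), all groups of a fit sharing 1 estimate of spread. Days 9 and 12, with 1 array per fraction, were separate groups whose means were averaged in the contrast, so the difference between these days does not enter the standard error. The comparisons of fractions over all days came from a second fit, of 18 sorted arrays with the day as a covariate. The p-values were adjusted over all genes, with a threshold of 0.05 and a minimum of 2-fold. Where members are counted by an unadjusted p, the share of all genes is not given, so those counts cannot be judged against it. The script was tested on simulated data. Levels are not compared between tables or between probe sets. The members and gene lists were chosen with earlier results of these data known, so they are not independent support. The genes named from lists are their called members, plus those whose roles bear on the factors. Replicate numbers M2 and M3 were checked for pairing: the correlation of same-numbered deviations between groups was −0.207 to 0.214 over 21 pairs of groups, with a median of −0.013, so the numbers were not treated as pairs. Alternatives were no minimum fold, leaving out the dimmest 25% of genes, quantile or median scaling, the mean of a gene's probe sets, a replicate block, fits of only the groups compared, and leaving out each array. No arrays were identical. Tables were handled with pandas 2.3.3 and numpy 2.4.6, and plots drawn with matplotlib 3.10.9.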

Additional observations from a re-analysis of the deposited data

Results flagged for a closer look

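The SSEA1+ minus Thy1+ difference changed between day 3 and days 9 and 12 for Prrx1 and Twist2, by the test of the change itself. For Prrx1 it was −2.96 on the late days and −0.55 on day 3, a change of −2.41 (SE 0.33, limma adjusted p = 0.000228). For Twist2 it was −2.60 on the late days and −1.38 on day 3, a change of −1.21 (SE 0.30, limma adjusted p = 0.0147). The late values rest on 1 array per fraction and day, and those of Prrx1 on its brightest probe set. On day 12 the Prrx1 difference was −3.73 with that probe set and −2.34, −4.48 and −4.5 with the others.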

How the results depend on the processing

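The counts of called members in iPS cells (7), in the day 3 fractions (4 each) and late Thy1+ cells (4) against MEFs, and in late SSEA1+ against Thy1+ cells (7), stayed within 1.5 times under every alternative run, and over SSEA1+ against Thy1+ cells of all days 4 to 6 were called when 1 array was left out (4 without the day 9 Thy1+ array). Without a minimum fold, the count was 1 for day 6 against day 3 in SSEA1+ cells, 4 for days 9 and 12 against day 6, 3 for iPS against GFP+ cells, 2 for late against day 3 Thy1+ cells, 6 for SSEA1+ against Thy1+ cells on day 6, 3 for Thy1- against Thy1+ and 4 for SSEA1+ against Thy1- cells over all days, and 1 for EpCAM. In day 3 SSEA1+ cells against MEFs, Twist1 and Zeb1 also passed without a minimum fold (limma adjusted p = 0.0103 and 0.0168). The split of the members in those cells thus depends on the minimum fold. Quantile scaling gave 1 for day 6 against day 3, 2 for days 9 and 12 against day 6, 2 for iPS against GFP+ cells and 1 for Thy1- against Thy1+ cells, where median scaling also gave 1. The replicate block gave 2 for days 9 and 12 against day 6, 2 for iPS against GFP+ cells and 1 for late against day 3 Thy1+ cells, although same-numbered arrays share only a number, as far as the pairing check showed. A fit of only the groups compared gave 2 for days 9 and 12 against day 6 and 0 for day 6 SSEA1+ against Thy1+ cells. For SSEA1+ against Thy1- cells, leaving out the dimmest genes gave 1 and the mean of probe sets gave 1. Leaving out 1 array gave 1 to 2 for days 9 and 12 against day 6, 0 to 1 for late against day 3 Thy1+ cells, 1 to 2 for SSEA1+ against Thy1+ cells on day 3, 2 to 5 on day 6 (5 without the SSEA1+ M2 array), 1 to 3 for the change of that difference, 0 to 2 for Thy1- against Thy1+ cells and 0 to 1 for SSEA1+ against Thy1- cells. Small differences that changed sign were, for Prrx1 in day 3 Thy1+ cells against MEFs, 0.02 with quantile scaling, for Snai1 in iPS against GFP+ cells 0.03 with quantile scaling, and for Snai2 in GFP+ against SSEA1+ cells 0.07 with median scaling. When 1 array was left out, Twist1 ranged between −0.23 and 0.05 in day 3 Thy1- cells against MEFs, between −0.07 and 0.12 in day 3 Thy1+ cells against MEFs (−0.01 without MEF M3), between −0.03 and 0.10 for day 6 against day 3 SSEA1+ cells, between −0.08 and 0.10 for late against day 3 Thy1+ cells and between −0.20 and 0.17 for iPS against GFP+ cells. Prrx1 ranged between −0.07 and 0.01 in day 3 Thy1+ cells against MEFs, Zeb1 between −0.68 and 0.15 for day 6 SSEA1+ against Thy1+ cells, and Twist2 between −0.22 and 0.04 for EpCAM. None of these differences was called with all arrays. Median scaling moved Twist1 in SSEA1+ against Thy1+ cells over all days to −0.99, under 2-fold, and shifted the median of all genes by 0.13 in iPS cells against MEFs. The cause of these changes was not tested. A probe set's signal over background limits what can be read at the low end, as for Snai1, Zeb2 and Twist2 in iPS cells.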
